A study of Mus musculus with 3 samples.

Results

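Close pairs of meiotic break sites that answer to different PRDM9 alleles were described here. PRDM9 is a zinc-finger histone methyltransferase, and an F1 male that carries 2 alleles of it has a separate set of break sites for each. The pairs are adjacent autosomal sites at most 5 kb apart, 1 assigned by the authors to the CAST allele of Prdm9 and the other to the humanized allele, written HUM. There were 411 such pairs among 23612 adjacent pairs of the 23631 autosomal sites, and the whole table held 24586 sites with the X. They are called mixed pairs below, and their partners the CAST-allele site and the HUM-allele site. In 13.1% of them (54 of 411) a site belongs to another close pair of any class. The 411 pairs hold 406 CAST-allele and 401 HUM-allele sites. They were set beside 330 CAST-CAST and 238 HUM-HUM adjacent pairs, also at most 5 kb apart. A further 209 close pairs have a partner of class UNK or KO, which the headers do not define.

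All libraries came from the whole testis of male F1 hybrids between C57BL/6J (B6) and CAST/EiJ (CAST), with the Prdm9 genotype HUM/CAST. DMC1 ChIP-seq came from 1 male 10 weeks old, and the H3K4me3 library from 1 adult male. With 1 library per assay there is no replicate, no test between conditions and no error over animals. The intervals below are 95% intervals over pairs or sites, exact binomial for shares and from order statistics for medians, and they take pairs as independent. Depth is unknown, because the table gives neither read numbers nor how signals were scaled.

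In meiosis PRDM9 binds a DNA motif set by its zinc fingers and trimethylates H3K4 on the nucleosomes around it. SPO11 then cuts some of the marked sites, the ends are resected to single strands, and DMC1 coats these strands for the search of the homologous chromosome. DMC1 signal therefore reflects both how often a site breaks and how long the strand stays coated. In hybrids, one homologue may have lost the motif, so that a site is marked and broken on the other homologue alone. That balance is given as the B6 share, the fraction of a mark's signal on the B6 homologue. The CAST allele and the CAST homologue are different things here, since each PRDM9 protein can act on both homologues.

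The base sequence at a break site was not analysed here. RefSeq promoter windows (build GRCm38.p6, 250 bases before to 50 after a gene start) show what DNA lies within a pair. They covered 18 of the 19 autosomes, with 390 of the pairs. Of these, 13 pairs had 16 windows of 14 genes in their span, and 1 window held a site itself. The 3 windows printed are that one, the Zmynd8 window of the 2 within the pair with the widest CAST excess in DMC1, and one that matches a motif. The 13-base motif known from human hotspots and its degenerate form with more open positions were searched on both strands. The degenerate form includes every match of the stricter. Capitals mark a match to the degenerate form, and each window is written 5′ to 3′ on the gene's strand.
Gm1604b, chr17:7025293-7025592, plus strand: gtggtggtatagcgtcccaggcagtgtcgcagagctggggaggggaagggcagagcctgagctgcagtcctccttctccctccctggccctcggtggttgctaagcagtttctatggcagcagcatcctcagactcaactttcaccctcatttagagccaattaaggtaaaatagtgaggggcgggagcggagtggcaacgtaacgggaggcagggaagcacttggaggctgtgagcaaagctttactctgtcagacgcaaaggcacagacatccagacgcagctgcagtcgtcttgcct
Zmynd8, chr2:165884789-165885088, minus strand: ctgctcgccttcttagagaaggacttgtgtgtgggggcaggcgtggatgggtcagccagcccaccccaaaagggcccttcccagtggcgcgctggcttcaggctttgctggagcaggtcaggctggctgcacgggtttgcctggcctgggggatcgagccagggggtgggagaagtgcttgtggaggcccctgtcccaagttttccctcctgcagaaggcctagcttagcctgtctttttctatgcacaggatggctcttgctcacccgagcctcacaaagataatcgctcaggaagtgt
Serpina11, chr12:103989894-103990193, minus strand: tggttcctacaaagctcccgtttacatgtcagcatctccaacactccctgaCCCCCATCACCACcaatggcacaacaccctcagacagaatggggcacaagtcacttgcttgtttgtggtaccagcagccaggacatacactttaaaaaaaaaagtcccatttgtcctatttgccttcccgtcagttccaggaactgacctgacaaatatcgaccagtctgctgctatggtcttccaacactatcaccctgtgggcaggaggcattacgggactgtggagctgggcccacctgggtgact
The stricter motif was in none of the 16 windows and in 0.158% of all 32851 windows. The degenerate form was in 2 of the 16 (12.5%) and in 6.29% of all windows. Those 2 are overlapping windows of Serpina11, a serpin gene, and hold the same match. The gene start of the printed one lay 2.21 kb from the CAST-allele site (DMC1 303) and 1.87 kb from the HUM-allele site (28.5). A match is a description of letters and says nothing of binding. The HUM-allele site in the Gm1604b window lay 92 bases from the gene start and overlapped H3K4me3 that does not depend on PRDM9, with DMC1 33.9 and H3K4me3 47.0. Its CAST-allele partner, inside the gene and 1749 bases from the start, had DMC1 85.7 and H3K4me3 39.4. So the 2 marks ranked these partners in opposite order.

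Mixed pairs were less common at the shortest distances. Of 148 adjacent pairs of CAST or HUM sites up to 2 kb apart, 46 were mixed, or 31.1% (95% interval 23.7% to 39.2%). Between 2 and 5 kb the share was 43.9% (40.5% to 47.4%, 831 pairs), and beyond 5 kb it was 48.2% (47.5% to 48.9%, 18864 pairs). Under 1 kb only 1 of 13 pairs was mixed. These shares leave out pairs with a UNK or KO site, which made up a larger part of adjacent pairs at the shortest distances. There were 13 of them beside the 13 pairs under 1 kb, 48 beside the 148 up to 2 kb, and 3560 beside the 18864 beyond 5 kb. The class balance itself was similar, with CAST-allele sites making up 58.8% of the sites in pairs up to 2 kb and 57.2% of those beyond 5 kb. No 2 adjacent autosomal sites lay closer than 0.621 kb. The part that peak calling and the authors' allele assignment have in this share was not tested.

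**Figure D1:**
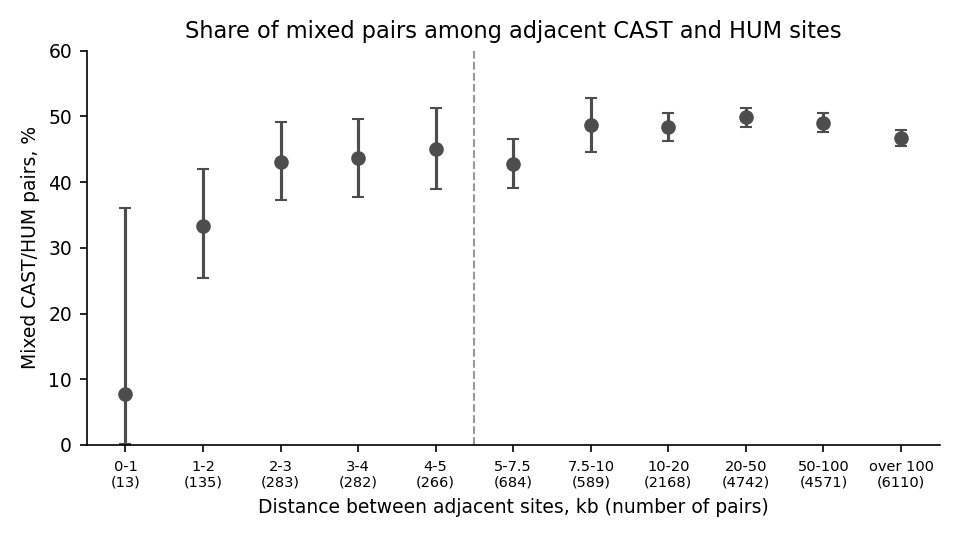
Share of mixed pairs (y axis, percent) among adjacent CAST and HUM sites by distance (x axis, kb, number of pairs in brackets), with exact 95% binomial intervals and a dashed line at 5 kb. The share is 33.3% at 1 to 2 kb and between 42.8% and 49.9% in every class beyond 2 kb.

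The pairs were spread over all 19 autosomes, from 10 on chromosome 16 to 37 on chromosome 4. As a share of adjacent pairs they ranged from 1.11% on chromosome 16 to 2.39% on chromosome 4. Partner distance ran from 0.945 to 4.98 kb, with a median of 3.28 kb. The last pairs inside the limit were 4983, 4971 and 4965 bp wide, near Erg, in Kcnd3 and near Gna13. Their CAST-allele and HUM-allele DMC1 signals were 219 and 18.9, 12.6 and 112, and 137 and 192. The first outside it were 5017, 5019 and 5045 bp wide, in Ctnna3, Sgpp2 and Lepr, with 18.04 and 146, 18.1 and 53.1, and 642 and 57.5.

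Within mixed pairs the CAST-allele site was usually the stronger in DMC1. Its signal ran from 8.55 to 1139 with a median of 90.1, and that of the HUM-allele site from 7.73 to 853 with a median of 51.2. The ranges overlap almost wholly. The median difference within a pair was 0.61 in log2 units, a ratio of 1.53, with a 95% interval of 0.34 to 0.84. The CAST-allele site was higher in 250 of 411 pairs, or 60.8% (55.9% to 65.6%), against 60.9% of all 9501 adjacent mixed pairs at any distance. It was at least 2-fold higher in 40.6% of the close pairs (background 43.0%), and the HUM-allele site was at least 2-fold higher in 21.9% (background 23.8%). The median difference was above 0 on 17 of 19 autosomes. At 5 to 20 kb the median difference was 0.62 (0.49 to 0.77), so close and more distant mixed pairs had a CAST excess of like size.

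H3K4me3, the mark that PRDM9 writes, differed less between partners. Its median was 13.5 at CAST-allele sites (0.900 to 286) and 10.8 at HUM-allele sites (1.07 to 125). The within-pair log2 difference was 0.21 with an interval of -0.01 to 0.52 that includes 0, and the CAST-allele site was higher in 54.5% of pairs (49.5% to 59.4%; background 56.5%). It was at least 2-fold higher in 33.3% (background 33.2%), and the HUM-allele site in 22.6% (background 22.9%). DMC1 per H3K4me3 was higher at the CAST-allele site in 61.3% of pairs (56.4% to 66.0%; background 60.3%), with a median log2 difference of 0.35. The partner with more H3K4me3 also had more DMC1 in 77.1% of pairs (72.8% to 81.1%), and in 78.0% at 5 to 20 kb.

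**Figure D2:**
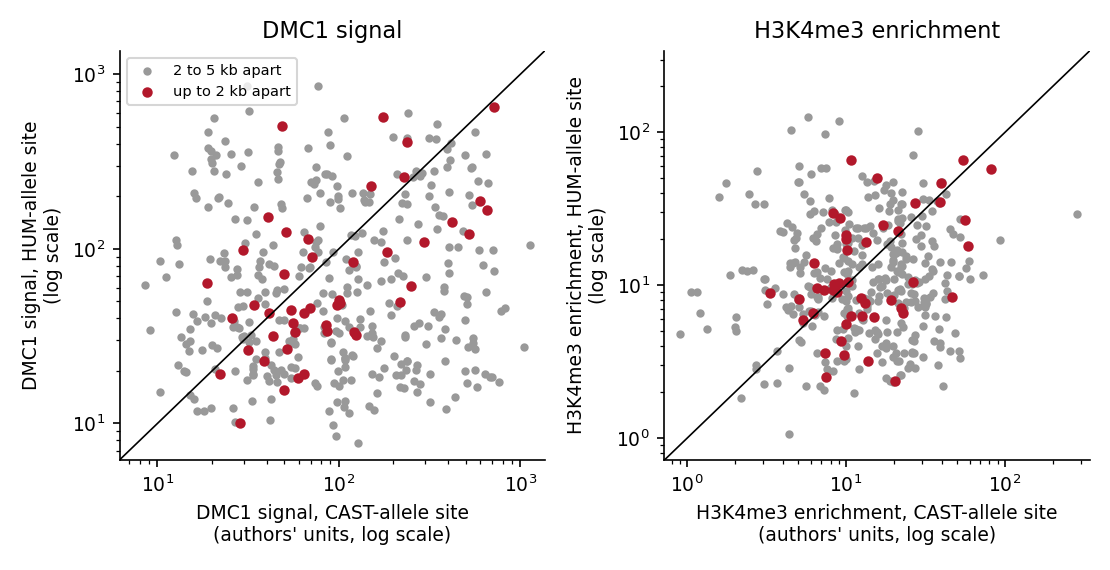
DMC1 signal (left) and H3K4me3 enrichment (right) of the HUM-allele site (y axis) against its CAST-allele partner (x axis) in 411 mixed pairs, both in the authors' units on log scales. Red points are the 46 pairs up to 2 kb apart, grey points the others, and the line marks equal values; 250 pairs lie below it for DMC1.

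The partners' levels were almost unrelated across all mixed pairs, but not at the shortest distances. The Spearman correlation of DMC1 between partners was 0.066 over 411 pairs and -0.020 over 1628 mixed pairs at 5 to 20 kb. Over the 46 pairs up to 2 kb apart it was 0.54, and for H3K4me3 0.35. Between 2 and 3 kb it had already come down to 0.043 for DMC1 and -0.017 for H3K4me3 (122 pairs). Same-allele pairs up to 2 kb apart gave 0.63 for DMC1 and 0.51 for H3K4me3 (102 pairs). All 568 close same-allele pairs gave 0.20 for DMC1. At 5 to 20 kb CAST-CAST pairs gave 0.066 and HUM-HUM pairs 0.033. All points come from the same libraries, so these values describe the table and carry no p-value. How peak calling divided signal between sites up to 2 kb apart was not tested. The partners of mixed pairs differed in DMC1 by a median of 1.44 log2 units in either direction. At matched distance same-allele partners differed by 1.36, CAST-CAST partners by 1.43 and HUM-HUM partners by 1.24. With the overall CAST minus HUM difference of 0.67 removed, the mixed value was 1.42. Partners at least 8-fold apart were 21.2% of mixed pairs (17.3% to 25.4%), 13.6% of CAST-CAST pairs (10.1% to 17.8%) and 13.4% of HUM-HUM pairs (9.38% to 18.4%), not weighted to matched distance. At 5 to 20 kb these shares were 22.6%, 21.3% and 17.9%. No 2 partners in the mixed pairs shared the same H3K4me3 value, which allows a share of up to 0.73% when 0 is taken to allow 3 counts. None did in close same-allele pairs or in pairs at 5 to 20 kb either, so this is not particular to mixed pairs. Among sites that need not be adjacent, 10220 repeat the H3K4me3 value of an earlier site.

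The median of a partner was not lower beside the strongest sites of the other allele. Pairs were split into 4 equal classes by the DMC1 of the CAST-allele site, whose medians were 22.4, 56.0, 125 and 392. The HUM-allele partner had median DMC1 of 46.5, 55.9, 45.4 and 73.0 (95% interval 46.0 to 112 in the last class), while its H3K4me3 stayed between 9.92 and 11.1. Its log2 ratio of DMC1 to H3K4me3 was 2.56 (2.17 to 2.98), 2.36 (2.15 to 2.65) and 2.36 (2.17 to 2.57) in the first 3 classes. Beside the strongest CAST-allele sites it was 2.89 (2.68 to 3.08), an interval that overlaps that of the first class. In mixed pairs at 5 to 20 kb the same ratio was between 2.42 and 2.49 in all 4 classes. With the classes made from the HUM-allele site instead, the CAST-allele partner had median DMC1 of 93.2, 82.5, 83.5 and 98.8 over rising classes of the HUM-allele site, with overlapping intervals, and its H3K4me3 was highest in the last class, at 17.0.

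The strength of member sites was set beside that of sites with no close neighbour. The 406 CAST-allele sites had median DMC1 of 90.2 (75.6 to 101) against 82.0 (78.7 to 84.9) at 11221 CAST-allele sites with no neighbour within 5 kb. The 401 HUM-allele sites had 50.1 (43.1 to 61.9) against 51.7 (49.9 to 53.6) at 8345. H3K4me3 was 13.5 against 13.2 at CAST-allele sites and 10.5 in both sets of HUM-allele sites. The DMC1 intervals overlap at both alleles. The CAST-allele difference was 0.14 in log2 units within 5 kb but -0.26 with a limit of 2 kb, and the HUM-allele difference was -0.046 but 0.12 with a limit of 10 kb. The member sites are 3.28% of autosomal CAST-allele sites and 4.32% of HUM-allele sites.

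The strongest pairs were ranked by the DMC1 of their weaker site. The first was in Bmp2k, a protein kinase (chromosome 5, CAST-allele site at 97081841 and HUM-allele site 1.99 kb away at 97083830). Its partners had DMC1 of 714 and 652 and H3K4me3 of 54.3 and 66.0. Their homologue balance differed, with DMC1 B6 shares of 0.922 at the CAST-allele site and 0.536 at the other. The second, in Slmap, a membrane-anchored protein (chromosome 14, 26414070 and 26417690), had DMC1 of 563 and 466 and shares of 0.928 and 0.332. The pair in Anln, which encodes the cytokinesis protein anillin (chromosome 9, 22337900 and 22333441), had DMC1 of 394 and 372 with shares of 0.442 and 0.991.

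Another pair of that ranking lay in Vps41, a subunit of the vesicle-tethering HOPS complex (chromosome 13, 18848342 and 18851636), with DMC1 of 650 and 349. Its CAST-allele site was used on both homologues (share 0.494) and its HUM-allele site almost wholly on the CAST homologue (0.0217). In Ski, a transcriptional corepressor (chromosome 4, 155173344 and 155171042), the HUM-allele site was the stronger, with 521 against 347. The share was 0.985 at its CAST-allele site and 0.454 at its HUM-allele site. The last 2 in the ranking lay between genes, 45.8 kb from 4931429L15Rik (chromosome 9, 46365788 and 46370100; DMC1 493 and 345) and 23.3 kb from Wdfy2 (chromosome 14, 62810615 and 62814330; 342 and 429). Near 4931429L15Rik the shares of the partners were alike, at 0.990 and 0.975, and near Wdfy2 they were 0.655 and 0.995.

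The widest CAST excess was 44.4-fold, in Zmynd8, a chromatin reader whose promoter window is printed above (chromosome 2, 165882829 and 165886559). DMC1 was 767 at the CAST-allele site and 17.3 at its partner, and H3K4me3 27.1 and 2.89. This CAST-allele site overlapped H3K4me3 that does not depend on PRDM9 and lay 0.551 kb from a Zmynd8 start. Similar excesses of 38.2-, 37.7- and 36.6-fold stood 88.1 kb from Lhfp (chromosome 3, 53353790 and 53349749), beside Lrrc28 (chromosome 7, 67509300 and 67512961) and between Epb41l2 and Smlr1 (chromosome 10, 25523958 and 25527546). The HUM excess reached 28.1-fold, in Atcay, a neuronal protein gene (chromosome 10, 81219467 and 81214697), with DMC1 of 12.3 and 346. It was 27.7-fold in Tbc1d8 (chromosome 1, 39460912 and 39464562), 27.4-fold in Klc1, a kinesin light chain (chromosome 12, 111785726 and 111789969), and 24.4-fold in Slmap (chromosome 14, 26421715 and 26417690). In all 8 of these uneven pairs the partner with more DMC1 also had more H3K4me3. The Slmap site at 26417690 is thus a partner in a balanced pair on one side and in a very uneven one on the other.

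The homologue balance of partners was compared where both shares are given, which holds for 380 pairs in DMC1 and 382 in H3K4me3. The DMC1 B6 shares of mixed partners had a Spearman correlation of 0.25, against 0.43 in CAST-CAST pairs (298) and 0.40 in HUM-HUM pairs (212). By distance the correlation in mixed, CAST-CAST and HUM-HUM pairs was 0.36, 0.49 and 0.51 at 2 to 3 kb. It was 0.14, 0.29 and 0.15 at 3 to 4 kb, and 0.13, 0.11 and 0.28 at 4 to 5 kb. At 5 to 20 kb it was 0.11, 0.15 and 0.057. For H3K4me3 the mixed partners gave -0.040, against 0.19 and 0.20 in the same-allele pairs. In mixed pairs the contrast between the marks was widest up to 2 kb, at 0.61 for DMC1 (42 pairs) but 0.10 for H3K4me3. Same-allele pairs up to 2 kb apart gave 0.80 and 0.59. In the closest pairs the partners' shares thus followed each other in DMC1 more than in H3K4me3. These correlations share libraries, are not weighted to matched distance and were not tested against each other. The part that peak calling has in the shares of sites up to 2 kb apart was not tested either.

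The size of the difference in share was compared next. The median DMC1 difference between mixed partners grew with distance, from 0.139 (95% interval 0.080 to 0.20) up to 2 kb through 0.206 and 0.268 to 0.302 (0.221 to 0.379) at 4 to 5 kb. Beyond 20 kb it was 0.319. The H3K4me3 share difference showed no such trend, with 0.214, 0.219, 0.238 and 0.227 in the same classes and 0.226 beyond 20 kb. The DMC1 difference of same-allele partners also grew, from 0.0789 (0.0588 to 0.142) through 0.189 and 0.277 to 0.278, and differed by 0.134 in H3K4me3 up to 2 kb. Over all pairs within 5 kb, at matched distance, mixed and same-allele partners differed by 0.234 and 0.239 in DMC1 and by 0.224 and 0.199 in H3K4me3.

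**Figure D3:**
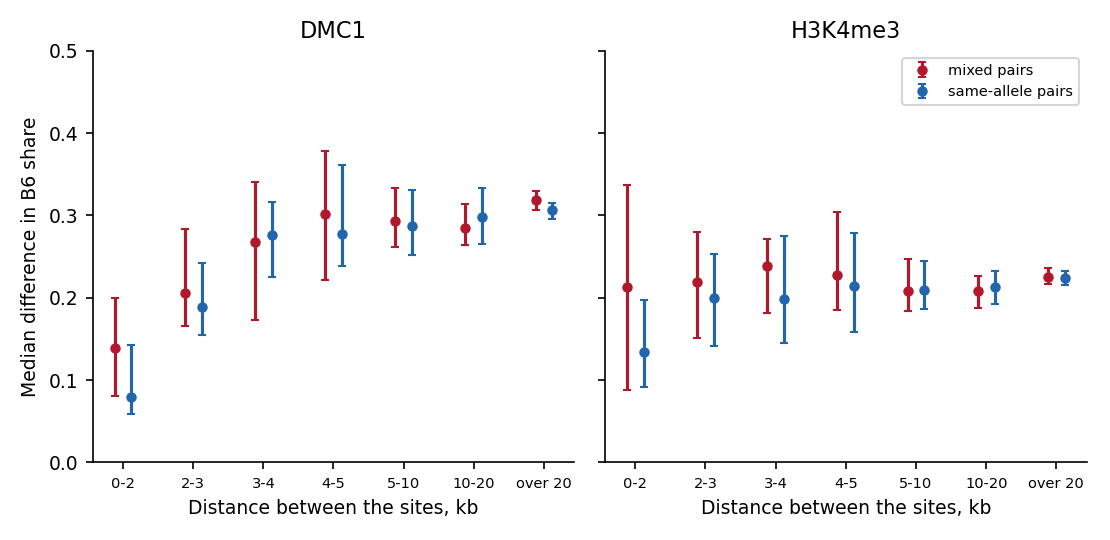
Median absolute difference in B6 share between partners (y axis) by distance (x axis, kb) for DMC1 (left) and H3K4me3 (right), in mixed (red) and same-allele pairs (blue), with 95% order-statistic intervals. The DMC1 difference of mixed pairs rises from 0.139 up to 2 kb to 0.302 at 4 to 5 kb, while for H3K4me3 it lies between 0.214 and 0.238 within 5 kb.

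A site was placed on the B6 homologue when its DMC1 B6 share was over 0.7, on the CAST homologue when it was under 0.3, and on both otherwise. Partners on opposite homologues were 42 of 380 mixed pairs, or 11.1% (8.08% to 14.6%), against 14.2% of all adjacent mixed pairs. In close CAST-CAST and HUM-HUM pairs, not weighted to matched distance, the shares were 6.04% (3.62% to 9.38%) and 8.49% (5.11% to 13.1%). When the CAST-allele site was on the CAST homologue, its HUM-allele partner was there too in 54.7% of 75 pairs (42.7% to 66.2%), against 38.3% (32.6% to 44.2%) at 5 to 20 kb. When the CAST-allele site was on the B6 homologue, the partner was there in 36.2% of 116 pairs (27.5% to 45.6%), against 30.5% at 5 to 20 kb. The partner was on the opposite homologue in 22.4% of the pairs with the CAST-allele site on the B6 homologue (26 of 116) and in 21.3% of those with it on the CAST homologue (16 of 75). The same shares at 5 to 20 kb were 26.1% and 25.9%.

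**Figure D4:**
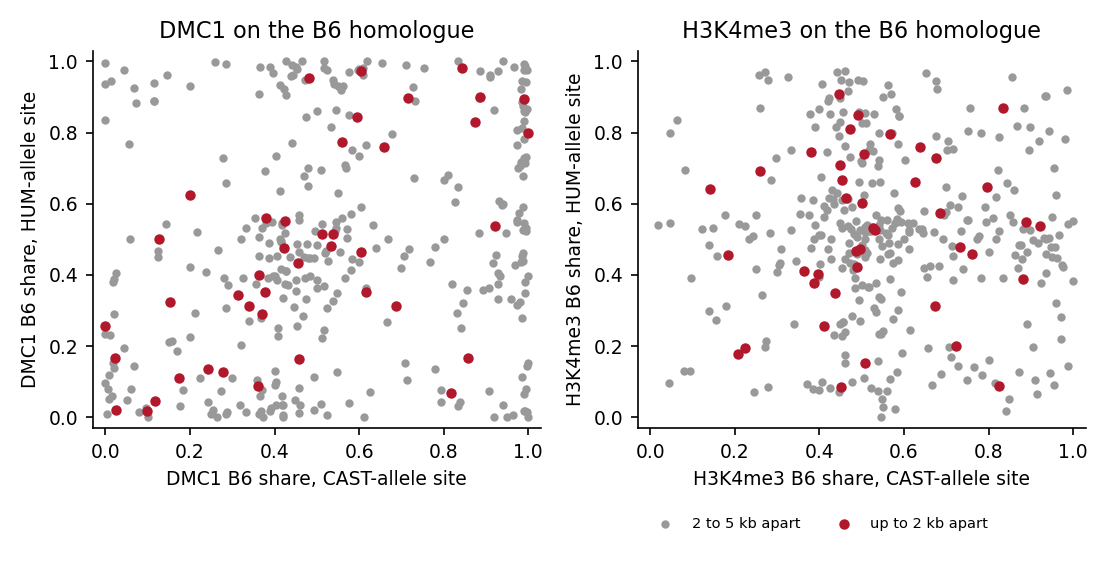
B6 share of the HUM-allele site (y axis) against that of its CAST-allele partner (x axis) for DMC1 (left, 380 pairs) and H3K4me3 (right, 382 pairs); red points are pairs up to 2 kb apart. The red points follow the diagonal for DMC1 (Spearman correlation 0.61) and scatter for H3K4me3 (0.10).

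The most opposed pairs had 1 partner on each homologue within 5 kb. In Cdkl4, a kinase gene (chromosome 17, 80525979 and 80521983), the CAST-allele site had a DMC1 share of 1 and the HUM-allele site, 1.57 kb outside the gene, of 0, with H3K4me3 shares of 0.815 and 0.0952. Both were weak, with DMC1 of 21.3 and 27.1. In Apba1, a synaptic adaptor (chromosome 19, 23944387 and 23941473), the shares were 0.996 and 0.0159 with DMC1 of 232 and 32.3. In St8sia1, a ganglioside sialyltransferase (chromosome 6, 142948339 and 142943923), they were 0.991 and 0.0179 with DMC1 of 442 and 30.3.

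The reverse order stood in Sclt1, a centriole gene (chromosome 3, 41663402 and 41666657), where the CAST-allele site had a share of 0 and the HUM-allele site of 0.997, with DMC1 of 86.7 and 467. It also stood in Scaf4 (chromosome 16, 90235619 and 90232365; 0 and 0.938) and 17.9 kb from Wnt10a, a signalling ligand (chromosome 1, 74822043 and 74824776; 0.0122 and 0.944). In the Wnt10a pair H3K4me3 was 22.1 and 21.8, but DMC1 was 318 and 19.1. In all 6 of these pairs each site's H3K4me3 share lay on the same side of 0.5 as its DMC1 share. The CAST-allele sites in St8sia1 and Sclt1 overlapped H3K4me3 that does not depend on PRDM9.

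The closest mixed partners lay 0.945 kb apart in Plekha5 (chromosome 6, 140443658 and 140442713). They had DMC1 of 43.2 and 31.8 and DMC1 shares of 0.886 and 0.901. The next were 1001 bp apart, 1.19 kb from Tcl1b1 (chromosome 12, 105168813 and 105167812), with DMC1 of 49.9 and 72.0 and shares of 0.243 and 0.135. In Rora, a nuclear receptor (chromosome 9, 68666400 and 68665213), the partners 1187 bp apart were both strong, with DMC1 of 419 and 142, H3K4me3 of 82.0 and 57.6 and shares near 0.5 (0.422 and 0.477). In Klhl2 (chromosome 8, 64745497 and 64746767; 1270 bp) DMC1 was 54.6 and 44.8, but the shares were 0.688 and 0.313. The CAST-allele sites in Plekha5 and Klhl2 overlapped H3K4me3 that does not depend on PRDM9. The pair in Auts2, a neurodevelopmental gene (chromosome 5, 132150315 and 132149013; 1302 bp), had low DMC1 shares at both sites, 0.175 and 0.111, with H3K4me3 shares of 0.489 and 0.421.

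Most pairs stood alone. Grouped into runs with every gap at most 5 kb, the mixed pairs fell into 396 runs, of which 357 had 2 sites, 36 had 3 and 3 had 4. The run in Jak1, a cytokine-receptor kinase (chromosome 4, 101217320 to 101228858), alternates HUM, CAST, HUM and CAST sites over 11.5 kb with DMC1 of 73.0, 406, 103 and 455, so that both CAST-allele sites exceed both HUM-allele sites. The first 3 of its 4 sites were mostly on the B6 homologue (shares 0.957, 0.911 and 0.963) and the last was on both (0.609). The run at Bcl2l15, a relative of the apoptosis regulator BCL2 (chromosome 3, 103845911 to 103855196), has the order CAST, CAST, HUM, CAST with DMC1 of 83.0, 20.5, 278 and 265. The run in Galnt2, a glycosyltransferase (chromosome 8, 124250431 to 124261430), has the order HUM, CAST, HUM, HUM with 21.0, 108, 13.4 and 43.4. Its 3 HUM-allele sites had shares of 0.905 to 1 and the CAST-allele site between them 0.428.

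**Figure D5:**
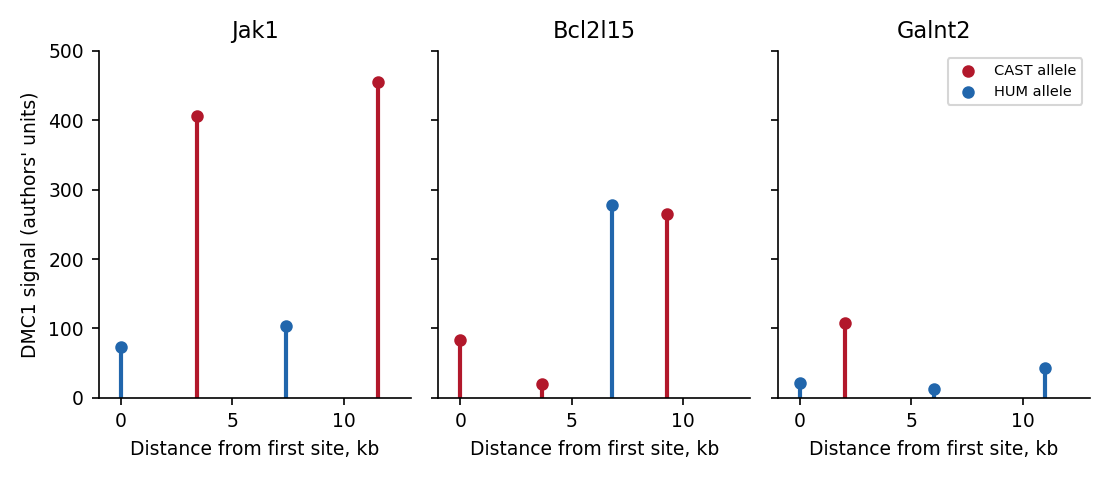
DMC1 signal (y axis, authors' units) of the sites in the 3 runs of 4 sites, by distance from the first site of the run (x axis, kb); red stems are CAST-allele and blue stems HUM-allele sites. In Jak1 the CAST-allele sites reach 406 and 455 and the HUM-allele sites 73.0 and 103.

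Both partners lay in the same protein-coding gene in 58.6% of mixed pairs (241 of 411, 53.7% to 63.4%), against 28.8% of adjacent mixed pairs at any distance, which are wider. Close CAST-CAST and HUM-HUM pairs gave 57.0% and 62.2%. The 227 genes concerned held 1 pair each in 214 cases; 12 held 2, among them the long genes Ank3, Auts2 and Dock4, and Jak1 held 3. The share of member sites inside genes, beside that of sites with no close neighbour, was 61.3% (56.4% to 66.1%) against 51.8% at CAST-allele sites, and 61.6% (56.6% to 66.4%) against 56.5% (55.4% to 57.6%) at HUM-allele sites, where the intervals overlap. Sites in close same-allele pairs gave 59.8% and 64.6%. The annotation used gives no exons, so a site inside a gene cannot be placed further.

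Of 39 genes of meiotic break formation, repair and the chromosome axis, 0 had a mixed pair in them or within 5 kb, and 20 had a site there. Over all autosomal protein-coding genes the share with such a pair was 1.45%, so a count of 0 is near the background. Of 12 genes in a list named long neuronal genes, 3 held 1 pair each. That is 2.33 pairs per 100 of their 129 sites, against 1.74 per 100 over all autosomal sites. The name of the list was not checked against expression here. In Ctnna3, an alpha-catenin (chromosome 10, 63673973 and 63671994), the HUM-allele site had DMC1 506 and its partner 48.4. In Macrod2 (chromosome 2, 141626394 and 141628649) DMC1 was 63.3 and 96.0, and in Dlg2, a synaptic scaffold (chromosome 7, 91836376 and 91833845), 111 and 60.8. Tex11 and Dmd, on the X, are in these lists and could not hold an autosomal pair.

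Overlap with H3K4me3 that does not depend on PRDM9 was recorded at the CAST-allele site in 41 mixed pairs, or 9.98% (7.25% to 13.3%), and at the HUM-allele site in 26, or 6.33% (4.17% to 9.13%). Over all autosomal sites the share was 7.79% at CAST-allele and 7.28% at HUM-allele sites, and both intervals include it. Both partners had it in 8 pairs, 1 in 51 and neither in 352. The median H3K4me3 of the 2 partners rose from 12.3 and 9.78 where neither overlapped to 38.5 and 31.9 in the 8 pairs where both did, while DMC1 was 89.7 and 55.8 against 110 and 45.1. Neither partner overlapped in 85.6% of mixed pairs (81.9% to 88.9%), 91.2% of CAST-CAST pairs (87.6% to 94.0%) and 86.6% of HUM-HUM pairs (81.6% to 90.6%). The highest H3K4me3 of any member, 286, belonged to a CAST-allele site in Snw1, a splicing factor (chromosome 12, 87471325), which overlapped such a peak and had DMC1 215. Its HUM-allele partner at 87475732 had H3K4me3 29.4 and DMC1 149, and this pair was chosen after its values were seen.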

How the data were processed

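The deposited table has 1 line per DMC1 peak, with positions in mm10. Per the file headers, DMC1 and H3K4me3 are signal intensities from the authors' peak callers, and each B6 fraction is the signal on the B6 homologue over that on both. Li and colleagues are named there as the source of the raw H3K4me3 data, and whether those are the reads of this series' H3K4me3 library is unknown. BWA was the aligner per the submitters' processing notes, in version 0.7.15 for H3K4me3. Scaling to depth is unknown. MNase-seq data were not used here. From the deposited signal and fraction values, log2 differences were taken with no pseudocount in Python 3.11.15, pandas 2.3.3 and SciPy 1.17.1, and the pair search was tested on simulated data. Same-allele pairs were weighted to the distances of the mixed pairs in bins of 1 kb where matched distance is stated. Sites inside several genes were named for the longest. Named pairs were those with the highest weaker site (8), the widest excess each way (4), the smallest distance (5), the most opposed shares each way (3), the runs of 4 sites, those in the gene lists, in a promoter window, and at the distance limit. Alternatives were other distance limits, left-out sites or pairs, means and an added constant. The pairs, lists and rules were chosen with earlier results of these data known. The windows between partners and the motif search were added after the data were seen. 1 of the named pairs is not reported here.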

Additional observations from a re-analysis of the deposited data

How the results depend on the processing

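Of 141 recomputed values of the 18 results under 9 other settings, 122 stayed within the interval of the reported value (or within 1.5 times the reported number of pairs), 19 moved out of it and 0 called values reversed. Leaving out sites on PRDM9-independent H3K4me3, leaving out pairs that share a site, means, and adding the smallest value moved none. Removing UNK and KO sites before sorting left the number at 411, and leaving out pairs of equal H3K4me3 removed no pair and is not counted. A limit of 2 kb left 46 mixed pairs. It gave a mixed share of 31.1%, a within-pair difference of -0.066 (log2) in H3K4me3 and 0.16 in DMC1 per H3K4me3, and the CAST-allele site higher in DMC1 in 67.4%. It also gave a mixed minus same-allele difference in DMC1 share of 0.0572, partner correlations in DMC1 of 0.54 (mixed) and 0.63 (same-allele), opposite homologues in 4.76% and 2.02%, and CAST-allele members lower than sites without a close neighbour, by a log2 difference of -0.26. A limit of 3 kb left 168 pairs, with correlations of 0.17 and 0.35 and opposite homologues in 7.95% and 2.92%. A limit of 10 kb gave 991 pairs and opposite homologues in 10.9% of same-allele pairs. Without pairs up to 2 kb apart, an alternative chosen after seeing the data, the same-allele correlation was 0.11. Within 5 kb the same-allele value was 0.20. The mixed value was 0.020 without the pairs up to 2 kb apart and 0.066 with them. The partner correlations in DMC1 were thus highest at the shortest distances, and part of the same-allele one remained beyond 2 kb. No paired analysis was possible because there is 1 library per assay. Depth is unknown, so the error of a single signal or share cannot be given.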

Other observations

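The X, left out of the pairs above, had 17 mixed pairs within 5 kb, beside 17 CAST-CAST and 6 HUM-HUM pairs. The CAST-allele site had the higher DMC1 in 8 of the 17. In the strongest, at 20861665 and 20864556, DMC1 was 1019 and 508 and H3K4me3 56.8 and 29.3. Pairs of strong and weak partners ran both ways, with DMC1 of 903 and 39.5 at 159718661 and 159715684, and of 21.9 and 494 at 151943969 and 151947870. A HUM-allele site at 163809902 (DMC1 49.2) lay between CAST-allele sites of 12.5 and 287. Males carry a single X, so a B6 share there is in general no balance between homologues. Where a DMC1 B6 share is given it was 0.993 or more, except in 1 pair at 169897657 and 169898348. Those partners were 0.691 kb apart, had shares of 0.0556 and 0.0497 and low H3K4me3 of 0.39 and 0.90, with DMC1 of 84.2 and 48.9. Why this pair differs was not tested.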
